A study of Rattus norvegicus with 8 samples.

Results

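The NMDA and AMPA receptors are ion channels that open when glutamate binds to them, and their 9 main subunit genes were followed here in liver, spleen and small intestine of rats given lavender oil (LO). The members were the features of the arrays whose design identifier is the transcript of *Grin1* (NM_017010), *Grin2a* (NM_012573), *Grin2b* (NM_012574), *Grin2c* (NM_012575), *Grin2d* (NM_022797), *Gria1* (NM_031608), *Gria2* (NM_017261), *Gria3* (NM_032990) or *Gria4* (NM_017263). All 9 genes had a probe on the arrays, among 36958 identifiers in all. They were measured by 12 probes, of which 6 were printed 10 times each and 6 were printed at a single position, which gave 66 features among 43379 non-control features. A feature is 1 spot of a probe, and the copies of a repeated probe lay on the same array.

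The study dosed male rats, 7 weeks old, into the stomach once daily for 13 days. The LO group received 5 mg/kg LO in 10% ethanol and the control group received 10% ethanol alone, with 6 rats in each group. The sample annotation gives the strain as Wistar, while the husbandry text names F334 rats, given as Fischer (F334) in the methods of the study. For each tissue the RNA of a group was pooled, and the LO pool and the control pool were hybridized together on whole-genome rat arrays with 2 dyes, Cy3 and Cy5. LO was labelled with Cy5 on array 1 of a pair and with Cy3 on array 2, a dye swap. The small intestine and the spleen had 1 such pair each and the liver had 2 pairs, from pools labelled Group1 and Group2, so that there were 8 arrays. How the liver pools differ is not given in the sources used here. Both arrays of a pair held the same 2 RNA extracts and counted as 1 replicate, so the spread between replicates came from the 2 liver pools only and was assumed for the other tissues. P-values therefore measure the spread between pools, and none of them holds the variation between single rats. Each tissue lay on a slide of its own, so slide and tissue cannot be told apart.

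The NMDA receptor is built from the obligatory subunit encoded by *Grin1* together with *Grin2* subunits, and it lets calcium into the cell once glutamate and a co-agonist have bound and the membrane is depolarised. The AMPA receptor is assembled from the products of *Gria1* to *Gria4* and carries the fast current of most excitatory synapses. Both families are known chiefly from the brain, and in the body outside it they are described in enteric and autonomic neurons and in some endocrine and immune cells. In pooled whole tissue, fewer cells of a type and less RNA per cell cannot be told apart.

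Most of the subunits gave little signal in these tissues. Of 1056 readings of the 66 features (8 arrays, both channels), 244 were well above the local background by the flag of the scanner software, a share of 23.1%. Over all non-control features, 44.3 to 64.7% were well above background in both channels of an array. That measure is stricter than a share of single readings, and the subunit share counts every copy of a repeated probe. *Grin1* and *Grin2d*, an NMDA subunit with slow channel closing, were detected throughout: 160 of 160 readings of *Grin1* and 16 of 16 of *Grin2d* were well above background. The *Gria3* probe was well above background in 8 of 16 readings, *Grin2c* in 31 of 160 and *Grin2a* in 23 of 176. For *Grin2b*, *Gria1* and *Gria2* the counts were 3 of 160, 2 of 160 and 1 of 176. The 2 *Gria4* probes had 0 of 32 readings well above background.

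The signals of the undetected subunits lay near the bottom of the scale. *Grin2b*, which encodes the subunit that predominates in the immature forebrain, had a median of 7.02 signal units over 160 readings, with a range of 3.69 to 63.95. The highest *Grin2b* reading came from 1 of its 10 copies in the control channel of the spleen, where the LO channel of the same spot read 57.1. *Gria1* had a median of 7.49 and *Gria2*, the subunit that makes AMPA receptors nearly impermeable to calcium, a median of 6.46 on its repeated probe. For 153 of 528 pairs of channel readings the deposited ratio was exactly 1, and 67 of those belonged to *Gria2*, 39 to *Grin2b* and 31 to *Gria1*. A ratio of exactly 1 accompanied dim spots and carried no measured difference. *Grin1* and *Grin2d* had none. Only 3 of the 12 probes, those of *Grin1*, *Grin2d* and *Gria3*, passed the filter for the test over all probes, which asked that 1 channel or both be well above background on 2 arrays or more.

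**Figure D1:**
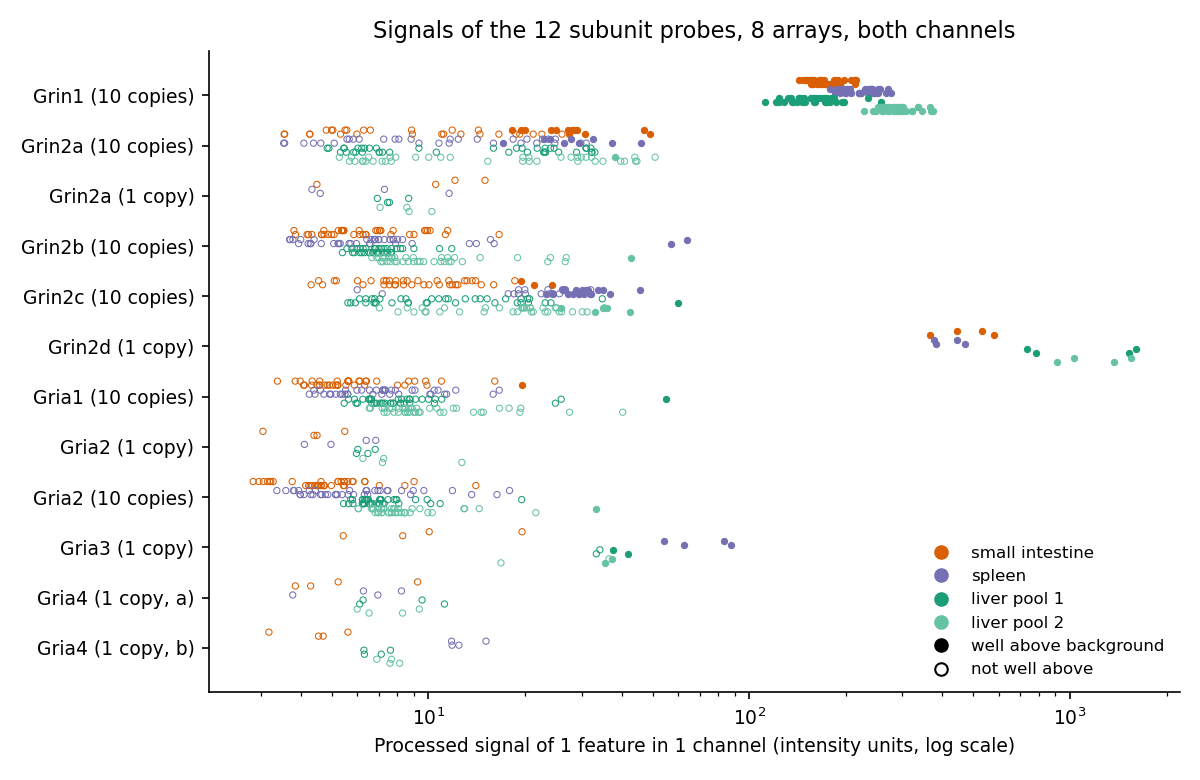
Processed signal of every copy of the 12 subunit probes in both channels of the 8 arrays (log axis, intensity units, 1 point per feature and channel), coloured by tissue and pool, with filled points well above background and open points not. The *Grin1* and *Grin2d* points are all filled, and the points of *Grin2b*, *Gria1*, *Gria2* and *Gria4* are nearly all open.

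The first question was whether LO changed the subunits in any tissue. No subunit passed the test. Over all tested probes, log2 LO/control on the 2 arrays of a pair correlated at -0.60 to -0.72 after the swapped array was turned, so that single-array ratios ran largely with the dye, and the mean of the pair was the value tested. *Grin1* (probe A_44_P536333) was the best measured member, with 10 copies on every array. In the small intestine its mean signal was 193 in control and 181 in LO on array 1, and 156 in control and 173 in LO on array 2. In the spleen it read 244 and 249 on array 1 and 196 and 209 on array 2, control before LO. The readings of liver pool 1 were 176 and 189, then 143 and 135, and those of liver pool 2 were 300.1 and 319, then 269.8 and 265. The sign of the difference followed the array rather than the treatment in the small intestine and in both liver pools, and was positive on both arrays in the spleen alone. The log2 LO/control values were 0.03 (SE 0.07) for small intestine, 0.06 (SE 0.07) for spleen and 0.02 (SE 0.05, 2 pools) for liver, with limma adjusted p of 1, 1 and 0.96. Across its copies *Grin1* ran between -0.26 and 0.27 on the log2 scale, with an SD of 0.05 to 0.10 on an array.

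*Grin2d* (probe A_44_P425143) was printed at a single position. Its signals in the small intestine were 445 in control and 366 in LO on array 1, and 531 and 580 on array 2. In the spleen they were 378 and 382, then 444 and 471. Liver pool 1 gave 1602 and 1528, then 737 and 785, and liver pool 2 gave 1031 and 911, then 1547 and 1375. LO was lower than control on both arrays of liver pool 2 and higher on both arrays of the spleen, and the arrays of the other pairs differed in sign. The log2 LO/control of *Grin2d* was -0.08 (SE 0.11) for small intestine, 0.05 (SE 0.11) for spleen and -0.08 (SE 0.08) for liver. The limma adjusted p-values were 1, 1 and 0.86.

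*Gria3* (probe A_44_P449764), an AMPA subunit encoded on the X chromosome, had the largest difference among the probes tested. In the small intestine control read 19.6 and LO 8.31 on array 1, and control 10.0 and LO 5.42 on array 2. None of these 4 readings was well above background. In the spleen all 4 readings were well above background, at 83.1 in control and 88.0 in LO, then 54.4 and 62.5. The liver gave 34.2 and 41.8, then 37.6 and 33.4 in pool 1, and 36.5 and 35.5, then 37.4 and 16.8 in pool 2, where the channel in Cy5 was well above background on each array and the channel in Cy3 was not. LO was thus below control on both arrays of the small intestine and above it on both arrays of the spleen. The fitted log2 LO/control was -1.06 (SE 0.32, adjusted p = 1 in limma) for small intestine, 0.14 (SE 0.32, adjusted p = 1) for spleen and -0.27 (SE 0.23, adjusted p = 0.85) for liver. The difference between spleen and small intestine, 1.204 (SE 0.45), had a limma adjusted p of 1, and no difference of the LO effect between tissues passed for any of the 3 probes.

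Over all 30592 probes tested, 0 passed in any of the 3 tissues by limma at an adjusted p of 0.05, which is 0% in either direction. At an unadjusted p under 0.05 there were 1206 probes for small intestine, 1302 for spleen and 1778 for liver, and among the 3 subunit probes there was none in any tissue, the smallest p being 0.0695 for *Gria3* in the small intestine. For the differences between tissues 0 probes passed as well, with 1111, 1377 and 1452 at an unadjusted p under 0.05 for spleen against small intestine, liver against small intestine and liver against spleen. With 4 pair means and 1 residual degree of freedom per probe, this test had little precision. Background correction by normexp, an alternative, called 32, 108 and 150 probes in the same order, and none of the 3 subunit probes was among them.

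The 9 probes outside the filter had mean log2 LO/control values between -0.97 and 0.33. The lowest was that of the single-copy *Grin2a* probe in the small intestine, where control read 12.1 and LO 4.49 on array 1, and 15.0 and 10.5 on array 2. In the spleen the same probe read 4.33 and 4.60, then 7.29 and 11.6, and the mean was 0.33. Next lowest was a *Gria4* probe (A_44_P323349, probe a in the plots) at -0.63 for small intestine and -0.49 for spleen. On array 1 of these tissues it read 9.25 in control and 3.84 in LO, and 8.23 and 3.77, whereas the ratio on array 2 was exactly 1 in the small intestine and the log2 value was 0.15 in the spleen. No channel of either probe was well above background on any array. The other 7 probes lay between -0.32 and 0.26 in every tissue.

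**Figure D2:**
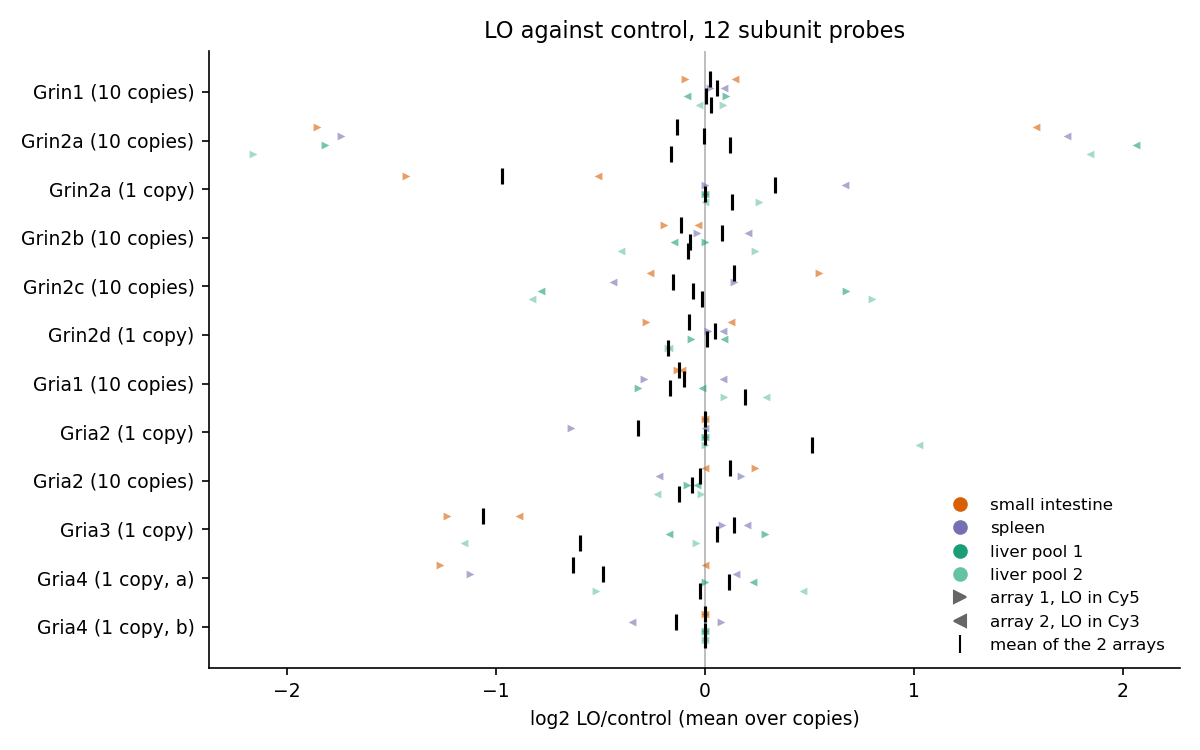
Log2 LO/control of the 12 subunit probes (mean over copies) on each array, as triangles pointing right for array 1 with LO in Cy5 and left for array 2 with LO in Cy3, with a black bar at the mean of the pair and colours for tissue and pool. The bars of *Grin1* and *Grin2d* lie close to 0, and the triangles of the repeated *Grin2a* probe lie far apart on either side of it.

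The cut-offs of the study were then applied to single features: Cy5/Cy3 of at least 1.5 on the array with LO in Cy5 and at most 0.75 on the swapped array for up-regulation, and the opposite for down-regulation. The methods of the study also name a P threshold of 0.01, which was not set at first. By this rule 4 of the 66 subunit features were called in the small intestine, 1 up and 3 down, where 0.36% of all 43345 features were called up and 0.353% down. In the spleen 3 features were called, 2 up and 1 down, beside 0.399% and 0.152% of all features. Liver pool 1 had 0 calls (0.408% and 0.401% of all features) and liver pool 2 had 1 call, up (0.51% and 0.743%). The 8 calls fell on *Grin2b* (5), *Gria1* (2) and *Gria3* (1). None of the 8 had both channels well above background on both arrays. With a deposited P under 0.01 required on both arrays as well, no subunit feature was called. Of all features this rule called 0.0115% up and 0.00923% down in small intestine, 0.00692% and 0.00923% in spleen, 0.0138% and 0.00692% in liver pool 1, and 0.0161% and 0.0231% in liver pool 2.

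Copies of the same probe were called in opposite directions. In the small intestine, *Grin2b* copy 7 was called up, at LO/control ratios of 1.60 on array 1 and 1.61 on array 2, from 7.04 to 11.3 and from 5.43 to 8.73 signal units. Copy 5 was called down at 0.599 and 0.609, and copy 8 was called down at 0.642 and 0.621. The same copy 5 was called up in the spleen, at 1.64 and 1.98. *Grin2b* copy 4 was called up in liver pool 2 at 1.70 and 1.60. The deposited P values of these 5 *Grin2b* calls lay between 0.437 and 0.675. Averaged over its 10 copies *Grin2b* had log2 LO/control values of -0.11 for small intestine, 0.08 for spleen and -0.08 for liver.

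*Gria1*, which encodes the AMPA subunit best known from synaptic plasticity, had 1 copy called up in the spleen at 1.83 and 1.53 and another called down at 0.461 and 0.430. Its mean over 10 copies in the spleen was -0.10. The single *Gria3* feature was called down in the small intestine at 0.425 and 0.540, with P values of 0.0771 and 0.563. When the cut-offs were applied to the mean over copies, the *Gria3* call was the only one left. Among the 263 probes of the array printed 10 times, at least 1 copy was called in 11 (small intestine), 13 (spleen), 5 (liver pool 1) and 21 (liver pool 2). Copies called both ways occurred in 1, 2, 1 and 1 of them, so *Grin2b* was the only such probe in the small intestine and *Gria1* was 1 of 2 in the spleen. At least 5 copies were called the same way in 1 of the 263 probes, in liver pool 2, and that probe was no subunit.

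The copies also show how precise a single feature was. Over the 8 arrays the SD of log2 LO/control between the copies of *Grin1* had a median of 0.08, near the median of all repeated probes, which was 0.07 to 0.16 by array. The median SD was 0.36 for *Grin2b*, 0.44 for *Gria2*, 0.56 for *Grin2a*, 0.58 for *Grin2c* and 0.62 for *Gria1*. The widest spread was that of *Gria1* on array 1 of liver pool 1, with an SD of 1.015. It held a copy at 55.0 signal units in control and 5.94 in LO, a ratio of 0.108 with a deposited P of 2.86e-05, while the log2 values of the other 9 copies lay between -0.06 and 0.06. On array 2 the same spot read 5.88 in control and 7.15 in LO.

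**Figure D3:**
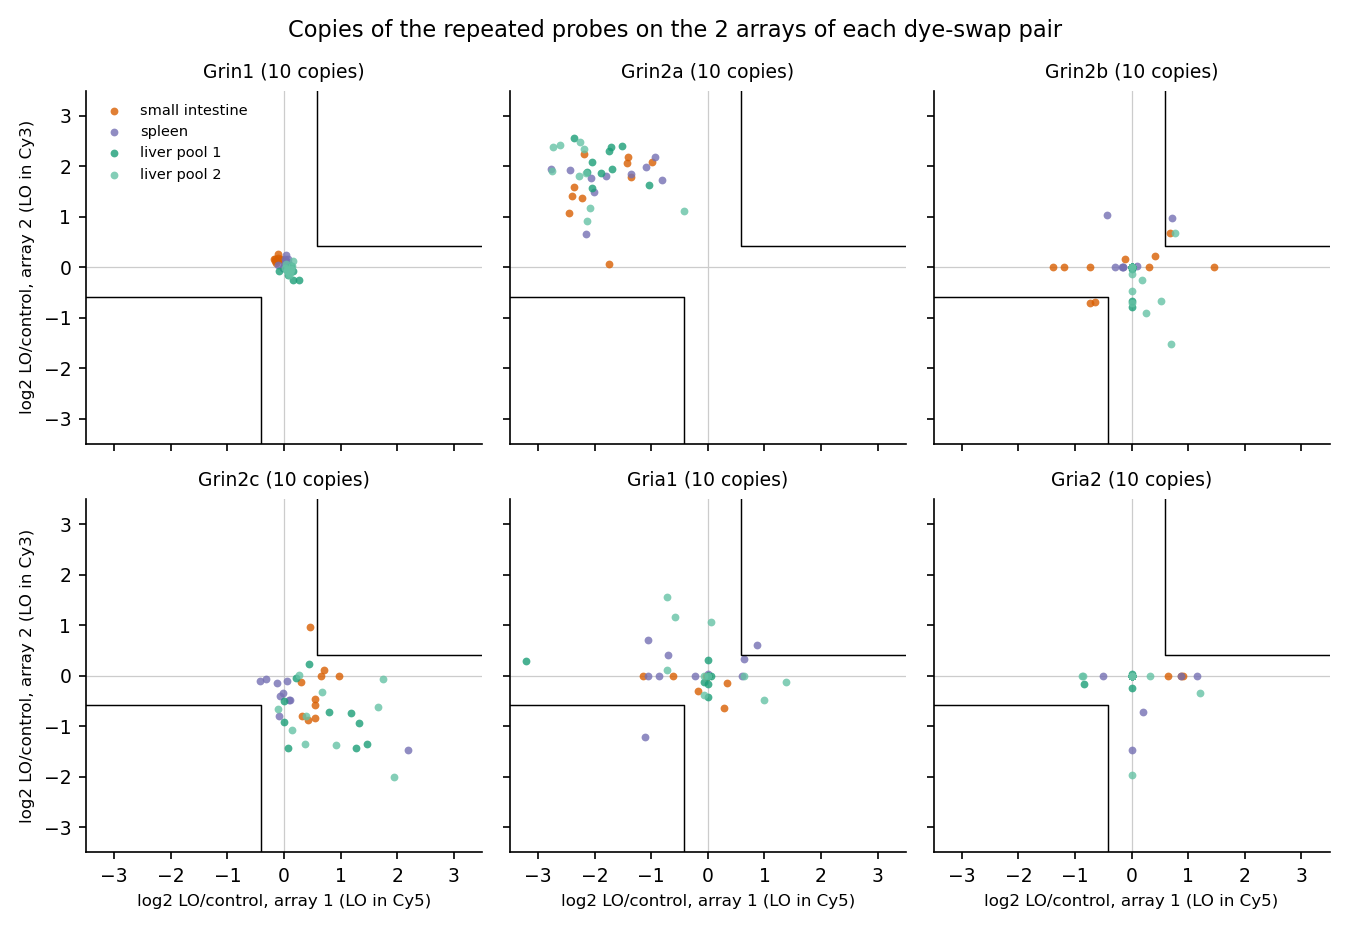
Log2 LO/control of each copy of the 6 repeated subunit probes on array 1 (x axis, LO in Cy5) against array 2 (y axis, LO in Cy3), coloured by tissue and pool, with lines at the ratio cut-offs for up-regulation (upper right) and down-regulation (lower left). The *Grin1* copies cluster near 0, the *Grin2a* copies lie in the upper left where the arrays of a pair disagree in sign, and single *Grin2b* and *Gria1* copies fall in both called regions.

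Another pattern followed the dye instead of the treatment. The repeated *Grin2a* probe was brighter in Cy3 than in Cy5 on each of the 8 arrays, whichever dye carried LO. *Grin2a* encodes an NMDA subunit that predominates in the adult brain. In the small intestine the mean of its copies was 23.4 in the Cy3 control and 7.06 in the Cy5 LO channel on array 1, and 24.6 in the Cy3 LO channel and 10.6 in the Cy5 control on array 2. In the spleen Cy3 and Cy5 read 22.0 and 7.41, then 28.2 and 9.05. Liver pool 1 gave 24.2 and 6.82, then 25.9 and 6.19, and liver pool 2 gave 33.0 and 7.46, then 32.9 and 9.45. The Cy3 channel was thus brighter by a similar amount in every tissue.

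The dye term of a limma fit over the 8 arrays as separate values was -1.85 on the log2 Cy5/Cy3 scale for this probe (SE 0.07, adjusted p = 0.0064), and -0.26 (adjusted p = 2e-04) with normexp, so that its sign held and its size did not. The Cy5 channel was well above background in at most 1 of the 10 copies on any array, and the Cy3 channel in 0 to 9. A dye term passed for 13% of 40979 probes, and 0.652% of probes had a value as low. By array, 9 or 10 of the 10 *Grin2a* copies had Cy5/Cy3 at or below 0.75. A deposited P under 0.01 was reached in 21 of the 80 readings of these copies, which were 21 of the 23 such readings among all subunits. None of the 10 copies passed the paired cut-offs in any tissue, and the pair means of log2 LO/control were -0.13 (small intestine), -0.00 (spleen) and -0.02 (liver). The other *Grin2a* probe had a dye term of -0.17 (adjusted p = 0.32 in the same limma fit). It had 0 of 16 readings well above background and a ratio of exactly 1 in 4 of 8. It therefore cannot show whether the excess is shared.

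*Grin2c*, an NMDA subunit known from the cerebellum, went the other way, with Cy5 above Cy3 on all 8 arrays and a dye term of 0.56 (SE 0.10, adjusted p = 0.035). Its means by array ran from 0.14 to 0.83 on the log2 Cy5/Cy3 scale. This call was lost when population outliers were left out (adjusted p = 0.063) and with normexp (adjusted p = 0.15). *Gria4* probe a had a dye term of -0.47 (adjusted p = 0.048), with Cy5/Cy3 below 1 on 6 of 8 arrays and at exactly 1 on the others. *Grin1* and *Grin2d* had dye terms of -0.00 and -0.08, with adjusted p of 1 and 0.28.

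**Figure D4:**
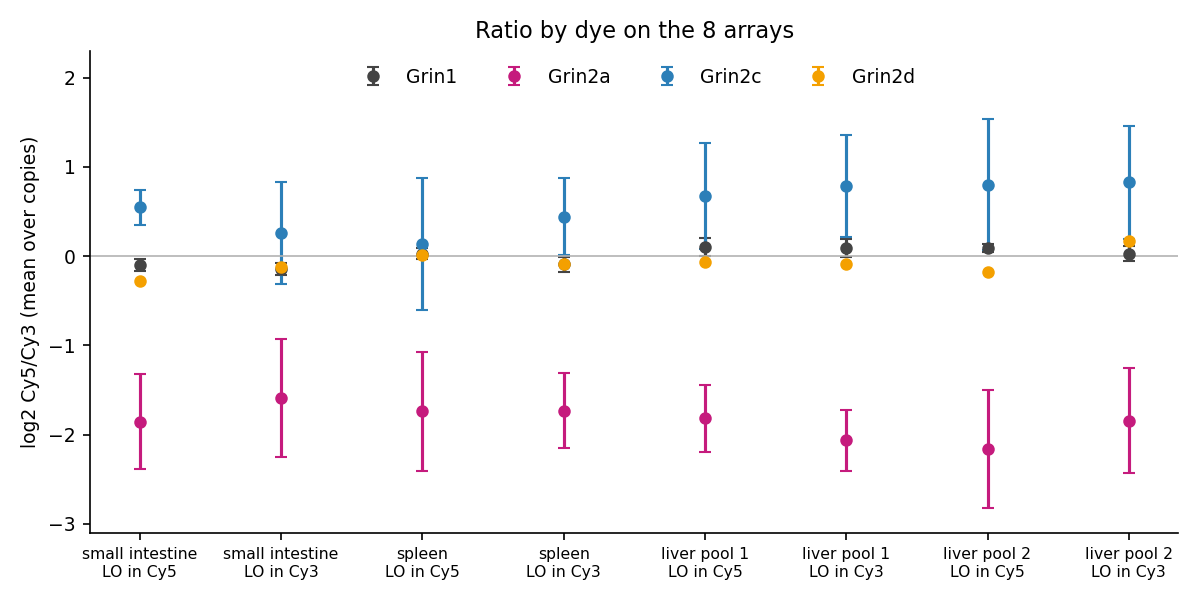
Log2 Cy5/Cy3 of *Grin1*, *Grin2a* (repeated probe), *Grin2c* and *Grin2d* on the 8 arrays, with the dye that carried LO under each array; points are means over copies and bars are the SD over 10 copies (*Grin2d* has 1 copy and no bar). *Grin2a* stays between -2.16 and -1.59 on every array and *Grin2c* stays above 0.

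The control channels allowed a second question, how the subunits differ between untreated tissues. Levels are log2 signals after Aquantile scaling between arrays, each compared with the same probe in another tissue. *Grin2d* was highest in the liver. Its control levels were 8.43 and 8.91 for small intestine, 7.93 and 8.45 for spleen, 10.90 and 9.68 in liver pool 1 and 10.37 and 10.96 in liver pool 2. The 4 liver values, from 2 pools, lay above the 4 values of the other tissues, from 1 pool each. The share of all probes with such a separation between tissues was not counted, for *Grin2d* or for the subunits below. Liver exceeded spleen by 2.29 (SE 0.43, limma adjusted p = 0.018), a 4.90-fold difference, and small intestine by 1.81 (SE 0.43, adjusted p = 0.043), a 3.51-fold difference. Spleen and small intestine differed by -0.48 (SE 0.49, adjusted p = 0.61). Of all probes tested, 14.2% were higher and 18.9% lower in liver than in spleen, and 10.2% higher and 12.2% lower in liver than in small intestine, so that a difference between these tissues was common.

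These 2 calls for *Grin2d* depended on the arrays. With array 2 alone (without replicate 1) the differences were 1.88 (adjusted p = 0.14) against spleen and 1.42 (adjusted p = 0.25) against small intestine, and with array 1 alone 2.71 (adjusted p = 0.028) and 2.21 (adjusted p = 0.050). Without scaling between arrays the values were 1.52 (adjusted p = 0.031) and 1.27 (adjusted p = 0.067), where the median of all probes was itself -0.69 and -0.45. In the LO channel the differences were 2.16 (adjusted p = 0.021) and 1.81 (adjusted p = 0.041).

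*Gria3* differed by tissue in another order. Its control levels were 4.11 and 3.55 for small intestine, 5.84 and 5.48 for spleen, and 5.53, 5.53, 5.38 and 5.38 for liver. Both intestinal values, which came from 1 pool and were not well above background, lay below all values of the other tissues. On the Aquantile scale the lower bound for spleen over small intestine was 2.69-fold. For liver, where 2 of 4 control channels were well above background, it was 2.33-fold. Here and below, such a bound sets the mean of the brighter tissue against a floor on each array of the dimmer tissue. The floor is the faintest signal that counted as well above background there, or the probe's own where higher. The faintest such signals were 3.82 and 4.36 log2 units on the intestinal arrays and 4.68 to 5.42 on the liver arrays. These bounds hold for the Aquantile-scaled signals only. The limma test used the measured means instead, 5.66 for spleen, 5.45 for liver and 3.83 for small intestine. Against small intestine it gave an adjusted p of 0.075 for spleen and 0.049 for liver. The probe passed the filter through spleen and liver readings only, and without the filter the liver difference did not pass. With the 8 arrays as separate values the spleen difference passed, at a limma adjusted p of 8e-04 without and 0.001 with the replicate block. Those p-values measure technical spread between arrays of the same RNA, not spread between pools. Spleen over small intestine was called for 5.21% of probes upward and 6.7% downward. With normexp the liver difference was 0.35 log2 units (limma adjusted p = 0.26), below the bound of 1.22 log2 units from the Aquantile-scaled signals. Spleen and liver did not differ beyond their error, at -0.21 (SE 0.40, adjusted p = 0.71).

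The *Grin1* levels were 7.22 and 7.18 for small intestine, 7.32 and 7.27 for spleen, 7.86 and 7.42 in liver pool 1 and 8.63 and 8.53 in liver pool 2. The liver values lay above the others, but the liver pools differed from each other by about as much as from the other tissues. Liver over small intestine was 0.91 (SE 0.55, limma adjusted p = 0.28), liver over spleen 0.82 (SE 0.55, adjusted p = 0.30) and spleen over small intestine 0.10 (SE 0.63, adjusted p = 0.95). Without scaling the liver over spleen value was -0.04. The faint *Grin2c* probe did not pass the filter, and its tissue differences were not tested. It was well above background in 5 or more of its 10 copies on 1 of 2 control channels in the spleen and on none in the other tissues. On measured means of 4.45 and 3.24 the bound for spleen over small intestine was 1.28-fold. For spleen over liver the measured means were 4.45 and 4.05 and the bound was 0.68-fold. A lower bound under 1 cannot show whether these tissues differed.

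**Figure D5:**
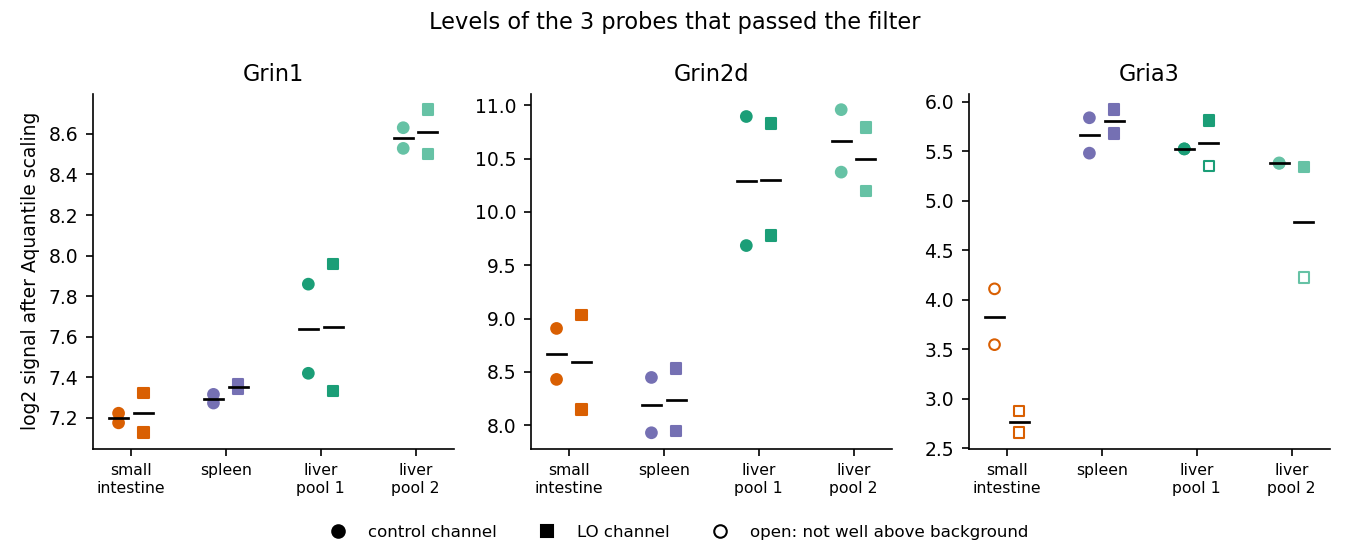
Log2 signals of *Grin1*, *Grin2d* and *Gria3* after Aquantile scaling, by tissue and liver pool, for the control channel (circles) and the LO channel (squares) of each array, with the mean of 2 arrays as a black line and open symbols where the probe was not well above background. The *Gria3* control circles of each liver pool overlap, 1 open under 1 filled. The y axes differ between genes; *Grin2d* is highest in both liver pools, *Gria3* is lowest in the small intestine and *Grin1* is highest in liver pool 2.

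Neuronal markers did not follow *Grin2d*. Of 11 probes for neuron markers, 7 were well above background on every control channel of small intestine, 2 on those of spleen and 0 on those of liver. On none of the 4 liver arrays were 8 of the 11 so, *Snap25*, *Syp*, *Uchl1* and *Gap43* among them. *Tubb3* was so on 3 liver arrays, with levels of 6.35 in liver and 6.39 in small intestine. *Nefl* and *Stmn2* were so on 1 liver array each. Liver over small intestine was -0.19 for *Nefl* and -4.22 for *Stmn2*. The summed control signal of the 11 probes was 1156 to 1237 for small intestine, 429.6 to 496 for spleen and 124 to 294 for liver. The 5 glial marker probes summed to 365 to 390, 448 to 519 and 321 to 463. Markers of hepatocytes, enterocytes and B cells were brightest in the tissues labelled liver, small intestine and spleen, but not confined to them. All 9 hepatocyte marker probes were well above background on every control channel of liver, 6 on those of spleen and 3 on those of small intestine. Their summed control signal was 1417170 to 1726760 in liver and 712 to 853 in spleen. *Cd79b* of B cells was 6.79 log2 units higher in spleen than in small intestine. Both enterocyte marker probes were well above background on every control channel of small intestine, 1 on those of liver and neither on any of spleen. Probes of pancreatic acinar genes were also bright in the small intestine. The summed signal of the 5 acinar probes was 379417 to 467004 there, and that of the 2 enterocyte probes was 197043 to 202182. The acinar sum was 923 to 1169 in the spleen and 2898 to 3954 in the liver. The tissue labelled small intestine thus held strong signal of pancreatic markers. The part of any of these cell types in the subunit levels was not tested.

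Genes that work beside the receptors were looked up in 7 lists of 57 genes, of which 52 had a named probe. Of 63 probes 39 passed the filter. None changed with LO in any tissue by limma, the median log2 LO/control of the 39 being -0.07 for small intestine, -0.01 for spleen and 0.00 for liver, beside 0.00, -0.00 and -0.00 over all probes. The extremes were *Dlg2*, a scaffold gene, at -0.66 and *Cacng2*, the AMPA auxiliary subunit stargazin, at 0.47 in the small intestine. In the spleen a *Shank2* probe stood at -0.47 and a *Camk2b* probe at 0.94, and in the liver *Glul*, glutamine synthetase, stood at -1.27 and *Dlg2* at 0.45. The adjusted p-values of these 6 values were 0.83 to 1. The other tested probes of *Shank2* and *Camk2b* stood at 0.00 and -0.01 in the spleen. The *Dlg2* and *Cacng2* probes were not well above background on any control channel of small intestine, nor *Shank2* on any of spleen or *Dlg2* on any of liver. *Camk2b* was so on 1 of 2 in the spleen and *Glul* on 1 of 4 in the liver.

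By the ratio cut-offs, 4 calls were made over the 117 features of these lists and the 4 pairs, where each pair called 0.152 to 0.743% of all features in a direction. Of the 10 copies of a *Dlg4* probe, which reads the postsynaptic scaffold PSD-95, 1 was called up in the small intestine (2.50 and 1.496), 1 up in liver pool 2 (2.88 and 1.54) and 1 down in liver pool 2 (0.696 and 0.486). *Gad2*, which makes GABA from glutamate, was called down in liver pool 2 (0.516 and 0.473). None of these 4 had both channels well above background on both arrays.

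Other receptors for glutamate were mostly not detected. Of the 4 kainate subunits with a named probe only *Grik3* passed the filter, and of the 6 metabotropic receptors only *Grm4* did. *Grik3* levels differed by -0.42 between liver and small intestine (adjusted p = 0.60) and those of *Grm4* by -1.38 (adjusted p = 0.076). *Grina*, a gene named for the NMDA receptor whose product is not a channel subunit, was well above background on every control channel, with levels of 11.13, 11.29 and 11.83 in small intestine, spleen and liver. *Grid1* and *Grina* did not pass in any comparison of tissues.

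Liver against small intestine, 8 of the 39 probes passed upward and 7 downward, beside 10.2% and 12.2% of all probes. Among the lists, glutamate transport had 2 up and 2 down among 6 tested probes, and glutamate metabolism had 3 up and 3 down among 9. *Gls2*, the glutaminase of the liver, was higher in liver by 4.90 (SE 0.45, adjusted p = 0.0036) on the log2 scale. *Slc1a2*, a glutamate transporter of astrocytes that liver also has, was higher in liver than in small intestine by 3.23 (SE 0.41, adjusted p = 0.0091) and at least 16.8-fold higher than in spleen. *Slc1a6* was at least 8.49-fold higher in liver than in small intestine and *Slc1a1*, the epithelial transporter, at least 2.69-fold higher in small intestine than in liver. *Camk2b*, a kinase subunit of the postsynapse, was at least 59.99-fold higher in small intestine than in liver on 1 of its 3 probes. Another passed the filter without a call (-1.48, adjusted p = 0.061) and the last was not well above background on any control channel.

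Liver against spleen, 11 of the 39 probes passed upward and 6 downward, beside 14.2% and 18.9% of all probes. Spleen against small intestine, 2 passed upward and 6 downward, beside 5.21% and 6.7%. *Slc1a3*, a transporter of glia and macrophages, was higher in spleen than in small intestine by 2.63 (SE 0.48, adjusted p = 0.034) and at least 19.2-fold higher than in liver on 1 of its 2 probes. The other gave 1.83 (adjusted p = 0.084) and a bound of at least 2.66-fold. *Shank3* was higher in spleen than in small intestine by 2.32 (SE 0.47, adjusted p = 0.043), and *Dlg3* lower by -3.32 (SE 0.48, adjusted p = 0.020). The median difference of the 39 probes was 0.66 for liver over spleen, 0.09 for liver over small intestine and -0.87 for spleen over small intestine, where all probes tested had medians of -0.10, -0.02 and 0.11. These lists were chosen with results of the same arrays known, and their counts are a description.

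The probes whose levels ran most like those of the 3 measured subunits were found by Pearson's r over the 16 channel values, among 8900 probes with a symbol. For *Grin1* they were *Taf1c* (r = 0.99), *Fxyd7* (0.99) and *Slc14a2* (0.98). For *Grin2d* they were *Ythdf2* (0.98), *Hspa4* (0.97) and *Zdhhc18* (0.97), and for *Gria3* they were *Neil1* (0.95), *P4ha1* (0.94) and *Fundc1* (0.93). The 16 values come in pairs from 8 arrays and fall into 3 tissues, so these figures describe mainly the order of the tissues.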

How the data were processed

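Arrays were read with Agilent Feature Extraction (version 11.0.1.1 in the submitters' processing notes). The authors deposited for each feature a log10 ratio of Cy5 over Cy3 after background subtraction and dye normalization, a p-value of that log10 ratio, which the software computes array by array, and intensity values of both channels, processed and as median pixels. A series value table deposited by the authors holds log10 of the ratio of processed signals. No coordinates were used.

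Log10 ratios were turned to log2 LO/control, copies of a probe were averaged and 34 non-uniform features were left out, which left 40979 probes, of which 30592 passed the filter (1 channel or both well above background on 2 arrays or more, counting a probe with a share of 0.5 or more of its copies so). Pair means of the dye swap were fitted with limma (version 3.58.1, R 4.3.3), 1 coefficient per tissue, with moderated standard errors and Benjamini-Hochberg adjustment over all probes (threshold 0.05). Control channels were scaled with Aquantile and fitted likewise. The replicate number equals dye orientation: deviations of same-numbered arrays correlated at 0.55 to 0.80 in 6 of 6 pairs of groups. The replicate block is therefore a dye term, and with 8 arrays as separate values p-values measure technical spread. Within pairs, the 2 log2 LO/control values correlated at -0.60 to -0.72 over probes.

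Depth has no count on arrays; their number, 8, limits the precision. Symbols came from RefSeq accessions (10768 probes). Alternatives were no filter, brighter probes only, normexp with an offset of 50 on median pixel signals (mean signals, which had been planned, are not used here), the series value table, the median over copies, ratios of exactly 1 as missing, other scalings, each replicate or liver pool left out, and, chosen after seeing the data, population outliers left out and other processing of the dye term. The scripts were tested on simulated data. All 9 members and every probe are named. From the lists, the members past a test or cut-off and the extremes were to be named, and of those past the tissue test a few per list are given. The members, lists and tests were chosen with earlier results of these data known. Python 3.11.15, numpy 2.4.6, pandas 2.3.3 and matplotlib 3.10.9 made the tables and figures.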

Additional observations from a re-analysis of the deposited data

How the results depend on the processing

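For LO against control, 0 probes passed in any tissue under the alternatives that gave a test, other than normexp, which called 32 (small intestine), 108 (spleen) and 150 (liver), and the 8 arrays as separate values, which called 1 in the small intestine both with and without the replicate block (1 up and 1 down with the block and no filter). Leaving out a liver pool left no residual spread and gave values without a test. The differences between tissues behaved alike: normexp called 23 (spleen minus small intestine), 27 (liver minus small intestine) and 67 (liver minus spleen), and the 8 arrays called 1 for liver minus small intestine with the replicate block and 1 without it. None of the 3 tested subunit probes was called for LO in any of these fits. The 4 subunit features past the ratio cut-offs in the small intestine became 0 with the P threshold, 0 when both channels had to be well above background, 0 with normexp and 1 on the mean over copies; the 3 of the spleen and the 1 of liver pool 2 became 0 under each of these 4. A single array of a pair called 19 to 28 features (small intestine), 20 to 27 (spleen), 17 to 19 (liver pool 1) and 27 to 29 (liver pool 2), while it called 17.2 to 31.2% of all features.

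Between tissues, the 2 subunit probes called for liver over small intestine became 0 without the filter, 0 without scaling, 1 with normexp and 0 to 0 when a replicate was left out, and the 1 called for liver over spleen became 0 to 1. For spleen over small intestine the count of 0 became 1 (*Gria3*) with 75th percentile scaling, with no scaling, in the LO channel, and with the 8 arrays with and without the replicate block. Aside from these, *Grin1* liver over spleen turned from 0.82 to -0.044 without scaling. LO values near 0 also turned: *Grin1* to -0.025 (small intestine, normexp), -0.10 (small intestine, without replicate 2, 0.15 without replicate 1) and -0.058 (liver, without replicate 1, 0.094 without replicate 2), *Grin2d* to 0.13 (small intestine, without replicate 1, -0.28 without replicate 2) and 0.012 (liver, without liver pool 2), and *Gria3* to 0.12 (liver, without replicate 2, -0.66 without replicate 1) and 0.057 (liver, without liver pool 2). The median SD between copies fell from 0.43 to 0.13 with normexp. The causes of these changes were not tested.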
